A study of Mus musculus with 36 samples.

Results

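The genes described here are the 8 genes of the MHC class I presentation pathway that were named for this work by symbol, B2m, H2-K1, H2-D1, H2-T23, Tap1, Tap2, Tapbp and Nlrc5, out of 20720 nuclear genes in the count tables. All 8 were found. They were followed across classes of cells, surgery groups and days in single cells of the mouse left ventricle, measured with SORT-seq, in which single cells are sorted into plates and transcripts are counted by unique molecular identifiers (UMIs). The mice were male C57BL/6 animals of 8 weeks, and the labels give the tissue of every group, sham included, as left ventricle of the infarcted region. Sham surgery was sampled at day 1 on 4 plates and at day 14 on 8 plates. Ischemia-reperfusion (IR), in which the left anterior descending artery was tied for 1 hour, gave 9 plates at day 1, 7 at day 3 and 3 at day 14, and myocardial infarction (MI), a permanent ligation, gave 5 plates at day 3. Comparisons of day 3 used the sham plates of both days, since a sham of day 3 was not analysed here.

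MHC class I molecules carry fragments of a cell's own proteins to the surface, where CD8 T cells and natural killer cells read them. Each consists of a heavy chain, such as H2-K1 or H2-D1, the light chain B2m and a bound peptide. The peptide is made by the proteasome, pumped into the endoplasmic reticulum by Tap1 and Tap2, and loaded on the heavy chain with the help of tapasin, the product of Tapbp. H2-T23 is a non-classical heavy chain that shows leader peptides to natural killer cell receptors, and Nlrc5 is the transactivator of class I genes. Interferons raise much of the pathway, and the healthy heart muscle cell is known for low class I at its surface.

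B2m lies alone on chromosome 2 (GRCm38, 122147686 to 122153083, plus strand) and Nlrc5 on chromosome 8 (94434356 to 94527272, plus strand). The other 6 lie in the MHC on chromosome 17, from Tapbp (33915899 to 33929292) and H2-K1 (33996017 to 34000347, minus strand) over Tap1 (34187553 to 34197225) and Tap2 (34203527 to 34216321) to H2-D1 (35262730 to 35267499) and H2-T23 (36029773 to 36032855, minus strand). The promoters of the 3 genes with the most UMIs are shown because their levels ran together across the profiles of class and group given below. RefSeq entries with the 250 bases before the start site (GRCm38.p6, 5′ to 3′ on the gene's strand) were matched for 6 of the 8 genes. The capitals mark the motif letters searched for on both strands, and overlapping motifs run into 1 capital stretch. The first is chr2:122147437-122147686, plus strand.

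B2m: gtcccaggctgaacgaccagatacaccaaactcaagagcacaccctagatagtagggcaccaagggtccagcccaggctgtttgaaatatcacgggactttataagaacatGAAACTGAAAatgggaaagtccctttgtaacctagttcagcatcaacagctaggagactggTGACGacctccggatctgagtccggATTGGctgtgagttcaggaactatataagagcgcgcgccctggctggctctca

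The second is chr17:34000348-34000597, minus strand, the first listed of 2 starts of the gene, and the third is chr17:35262844-35263093, plus strand.

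H2-K1: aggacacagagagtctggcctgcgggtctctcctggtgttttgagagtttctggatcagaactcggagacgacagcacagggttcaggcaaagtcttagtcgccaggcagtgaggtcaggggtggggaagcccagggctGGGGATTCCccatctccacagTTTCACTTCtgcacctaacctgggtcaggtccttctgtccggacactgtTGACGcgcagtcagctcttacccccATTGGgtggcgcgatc

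H2-D1: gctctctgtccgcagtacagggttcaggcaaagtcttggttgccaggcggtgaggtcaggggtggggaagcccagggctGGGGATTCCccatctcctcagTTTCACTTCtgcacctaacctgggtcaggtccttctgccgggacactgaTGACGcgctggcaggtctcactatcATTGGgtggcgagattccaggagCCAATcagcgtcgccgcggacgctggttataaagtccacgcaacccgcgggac

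GGGGATTCC, a kB-type motif, and TTTCACTTC, the interferon-stimulated response element of class I promoters, were both in the H2-K1 and the H2-D1 window, and in 0.213% and 0.402% of all 32851 promoter windows. Neither stretch of letters was in the other 4 windows. GAAANNGAAA, a pair of interferon regulatory factor core letters, was in the B2m and the H2-T23 window and in 2.98% of all windows. TGACG, the core of the cyclic AMP response element, was in the windows of B2m, H2-K1, H2-D1 and Tap1 and in 17.8% of all, and CCAAT, the CCAAT box, was in all 6 and in 33.9% of all. A match describes the letters and is no evidence of binding.

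Wells with at least 1000 UMIs of nuclear genes were kept as cells, 3146 in all, and clustered without the 8 genes and the other genes of the pathway. Classes were named from marker lists fixed with the design, so that 954 cells were called cardiomyocyte-like, 634 macrophage-like, 381 endothelial-like, 298 fibroblast-like and 157 neutrophil-like, with 15 called mural-like and 707 unnamed. The plates held 176614 to 5551870 UMIs in all, mitochondrial genes and spike-ins included. The median cell held 13120 UMIs in the MI group and 2217 to 3230 in the other 5 groups. The MI plates also carry a protocol label of their own, so that MI and a library batch cannot be told apart in any comparison with MI. All 37 cells of day 14 sham replicate 7 matched the well of the same number in replicate 2, which has 45 cells, and these were counted as 1 plate. A further 20 cells matched a deeper well on another plate. Of these, 10 lay on replicate 2 and matched IR day 3 replicate 6, so that groups compared here may share cells. Without the 20 cells the change of B2m in cardiomyocyte-like cells at IR day 3 was 0.92 (edgeR, adjusted p = 0.0448), and of the calls of the 8 genes that of H2-D1 between endothelial-like and macrophage-like cells was lost. Which mouse gave which plate is not given, so plates may share a mouse and p values may be too small. For MI the methods name fewer hearts than there are plates, so that some of the 5 MI plates share a heart and p values of every comparison with MI are too small.

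Levels are given as CPM, counts scaled to 1000000 nuclear UMIs, summed over the cells of a class on a plate with at least 5 such cells. CPM is not scaled by gene length, so levels are compared between cells and not between genes. The heavy chain genes are related in sequence, and the division of reads among H2-K1, H2-D1, H2-T23 and their relatives by the authors' mapping is uncertain. B2m was seen with at least 1 UMI in 67.3% of the 3146 cells, H2-D1 in 59.8%, H2-K1 in 53.4%, Tapbp in 42.4%, H2-T23 in 17.9%, Tap1 in 14.9%, Tap2 in 14.4% and Nlrc5 in 6.48%. In wells of at least 100 but under 1000 UMIs, which were not kept as cells, B2m stood at 361 CPM in day 1 sham, 431 in day 14 sham, 393 at IR day 14, 780 at IR day 1, 930 after MI and 1164 at IR day 3. In each group this lies above every plate of cardiomyocyte-like cells given below, and its part in those levels was not tested.

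In means over all plates, which pool groups, B2m was high in endothelial-like and macrophage-like cells, lower in neutrophil-like cells, lower again in fibroblast-like cells and lowest in cardiomyocyte-like cells. The endothelial-like level was 2382 ± 956 CPM (SD, 26 plates; lowest 571, median 2306, highest 4142). The macrophage-like level was 2370 ± 933 CPM (SD, 24 plates; lowest 1052, median 2062, highest 4179). These neighbours in the order did not differ beyond their spread: on the 19 plates with both classes the difference in log2(CPM + 10) was -0.11 ± 0.51 (SD), with endothelial-like cells higher on 6 and macrophage-like cells on 13 plates (exact sign-flip test, two-sided, p = 0.376, adjusted over all genes 0.536).

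The neutrophil-like level was 1240 ± 371 CPM (SD, 14 plates, 676 to 1953). Macrophage-like cells were higher in B2m by 0.52 ± 0.45 (SD) on 12 of 14 plates (exact p = 0.000732, adjusted 0.00648), where the median gene was higher by 0.41, while the difference of 0.39 ± 0.61 from endothelial-like cells on 13 plates did not pass (exact p = 0.042, adjusted 0.086) and was below that of the median gene, 0.67. Neutrophil-like plates came from IR day 1 and MI only, where the endothelial-like mean was 1631 and 1544 CPM and the neutrophil-like mean 1218 and 1280 CPM. The fibroblast-like level was 870 ± 416 CPM (SD, 20 plates, 382 to 1724), and neutrophil-like cells exceeded it on 10 of 10 shared plates by 1.201 ± 0.57 (exact p = 0.00195, the smallest 10 plates allow, adjusted 0.0129). In this pair the median gene also differed, by -0.59, so that relative to it the gap is wider.

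Cardiomyocyte-like cells held 203 ± 130 CPM of B2m (SD, 20 plates; lowest 72.5, median 144, highest 556). Endothelial-like cells exceeded them by 4.01 ± 0.81 on the log2 scale on 17 of 17 plates (exact p = 1.53e-05, the smallest 17 plates allow, adjusted 0.000172). The median gene differed by 0.44 in the same direction. Macrophage-like cells were higher by 3.66 ± 1.04 on 13 of 13 plates (exact p = 0.000244, adjusted 0.00227) and fibroblast-like cells by 2.55 ± 1.27 on 11 of 12 plates (exact p = 0.000977, adjusted 0.00651). The 1 plate with the opposite order was of IR day 1.

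The heavy chains were likewise lowest in cardiomyocyte-like cells, and the means below pool plates of different groups. H2-K1 stood at 921 ± 512 CPM in endothelial-like cells (SD, 26 plates), 841 ± 397 in macrophage-like cells (24 plates), 475 ± 216 in neutrophil-like cells (14 plates), 306.5 ± 154.9 in fibroblast-like cells (20 plates) and 84.6 ± 38.1 in cardiomyocyte-like cells (20 plates). On shared plates H2-K1 was not called between endothelial-like and neutrophil-like cells (0.28 ± 0.98, 13 plates, exact p = 0.323, adjusted 0.421), and after MI its mean was 461 CPM in neutrophil-like and 341 CPM in endothelial-like cells. H2-D1 stood at 1634 ± 774 CPM in macrophage-like, 1552 ± 552 in neutrophil-like, 1465 ± 804 in endothelial-like, 462 ± 337 in fibroblast-like and 92.5 ± 79.1 in cardiomyocyte-like cells. On shared plates H2-D1 was higher in neutrophil-like than in endothelial-like cells by 0.63 ± 0.70 on 11 of 13 plates (exact p = 0.00781, adjusted 0.0238). It was also higher in macrophage-like than in endothelial-like cells, by 0.37 ± 0.60 on 14 of 19 plates (exact p = 0.0155, adjusted 0.0473), a call lost when any 1 of 14 plates was left out, with adjusted p values from 0.0514 to 0.0827 there, and in 9 of 11 other alternative settings (endothelial-like minus macrophage-like -0.22 with cells of at least 2000 UMIs, adjusted p up to 0.260). H2-T23 was sparse, at 98.4 ± 136 CPM in endothelial-like, 74.9 ± 52.8 in macrophage-like, 71.6 ± 73.1 in neutrophil-like, 28.4 ± 29.9 in fibroblast-like and 9.88 ± 24.1 in cardiomyocyte-like cells.

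**Figure D1:**
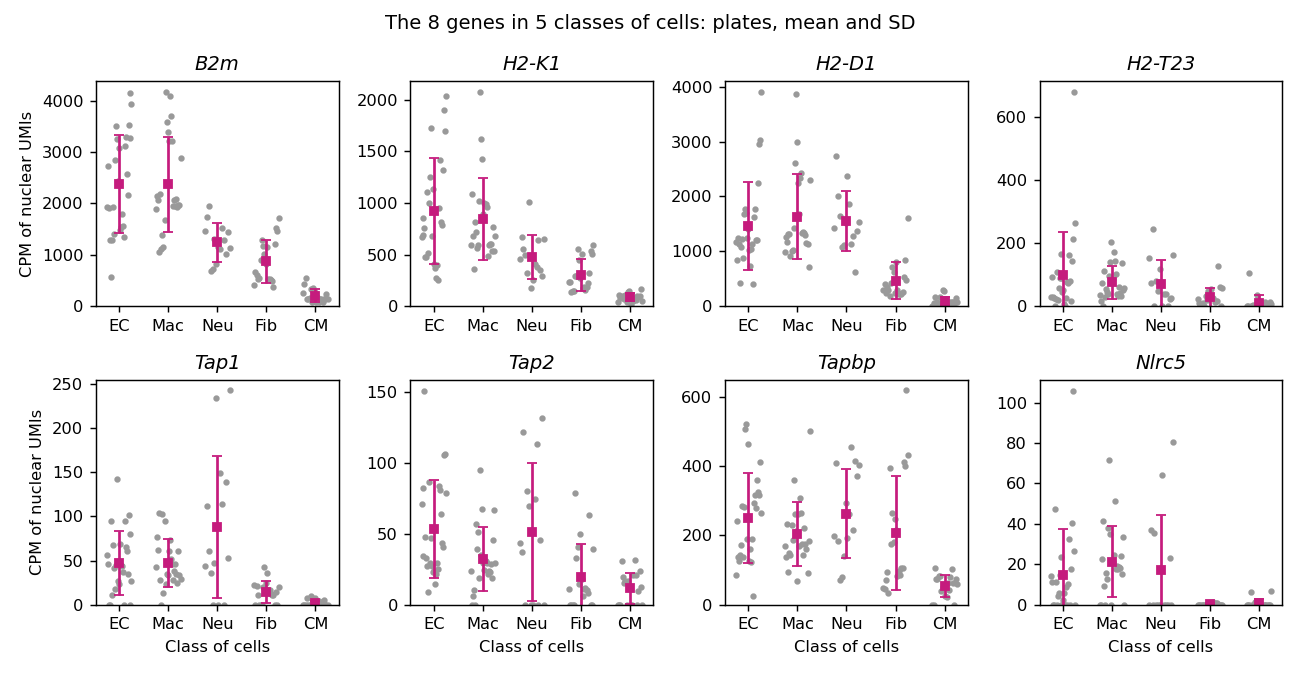
Level of each of the 8 genes in endothelial-like (EC), macrophage-like (Mac), neutrophil-like (Neu), fibroblast-like (Fib) and cardiomyocyte-like (CM) cells, in CPM of nuclear UMIs on a linear axis of its own per gene. Grey points are plates of all groups with at least 5 cells, and squares with bars are the mean and SD over plates. B2m fell from 2382 CPM in EC to 203 in CM, while H2-D1 in Neu, at 1552, lay beside EC and Mac.

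The transporter subunits Tap1 and Tap2 had their lowest means in cardiomyocyte-like cells. Tap1 stood at 87.8 ± 80.5 CPM in neutrophil-like, 47.7 ± 27.1 in macrophage-like, 47.3 ± 35.7 in endothelial-like, 14.1 ± 12.3 in fibroblast-like and 1.68 ± 3.14 in cardiomyocyte-like cells. Tap2 stood at 53.5 ± 34.9 CPM in endothelial-like, 51.4 ± 48.5 in neutrophil-like, 32.5 ± 22.6 in macrophage-like, 19.8 ± 23.2 in fibroblast-like and 11.7 ± 11.1 in cardiomyocyte-like cells. Tapbp stood at 263 ± 129 CPM in neutrophil-like, 249 ± 130 in endothelial-like, 206 ± 165 in fibroblast-like and 204 ± 93.1 in macrophage-like cells, against 54.9 ± 32.0 in cardiomyocyte-like cells. The endothelial-like and fibroblast-like levels of Tapbp differed by 0.41 ± 1.01 on 18 plates, which did not pass (exact p = 0.106, adjusted 0.253), while on 10 of 10 shared plates neutrophil-like cells exceeded fibroblast-like cells by 1.65 ± 0.62 (exact p = 0.00195, adjusted 0.0129). Nlrc5 was near the limit of detection, at 21.2 ± 17.5 CPM in macrophage-like, 17.2 ± 27.2 in neutrophil-like and 14.8 ± 22.8 in endothelial-like cells, 0.711 ± 2.00 in cardiomyocyte-like and 0.222 ± 0.427 in fibroblast-like cells. It was higher in macrophage-like than in fibroblast-like cells on 14 of 17 plates and equal on the others, by 1.39 ± 0.81 (exact p = 0.000122, adjusted 0.000849), on 210 and 6 UMIs.

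The count of the 8 genes called in each pair of classes is read against the share of all genes called in that pair. All 8 were tested in each pair, whatever their counts. All 8 were higher in endothelial-like than in cardiomyocyte-like cells, where 50.4% of 11136 genes were called in either direction, and all 8 were higher in macrophage-like than in cardiomyocyte-like cells, against 41.8% of all genes. In macrophage-like against fibroblast-like cells 7 of 8 were higher, all but Tapbp, against 38.0% of all genes, and in endothelial-like against fibroblast-like cells 6 of 8, all but H2-T23 and Tapbp, against 23.2%. In neutrophil-like against fibroblast-like cells 6 of 8 were higher, against 41.7%, and in fibroblast-like against cardiomyocyte-like cells 6 of 8, all but Tap2 and Nlrc5, against 34.5%. In the last pair the calls of H2-T23 and Tap1 were lost when 1 of 9 and 1 of 8 of the 12 plates was left out, with adjusted p values up to 0.0784 and 0.0691, and in 18 and 16 of all 24 alternative settings, with differences down to 0.52 and 0.30. Between macrophage-like and neutrophil-like cells 2 of 8 were called, B2m and H2-K1, both higher in macrophage-like cells, against 34.8% of all genes and a median gene at 0.41. Between endothelial-like cells and each of macrophage-like and neutrophil-like cells 1 of 8 was called, H2-D1, lower in endothelial-like cells, against 33.3% and 41.7%. Each of the 9 calls in pairs with neutrophil-like cells was lost in 4 of 8 alternative settings. Neutrophil-like and cardiomyocyte-like cells shared 5 plates, which cannot reach p under 0.0625.

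**Figure D2:**
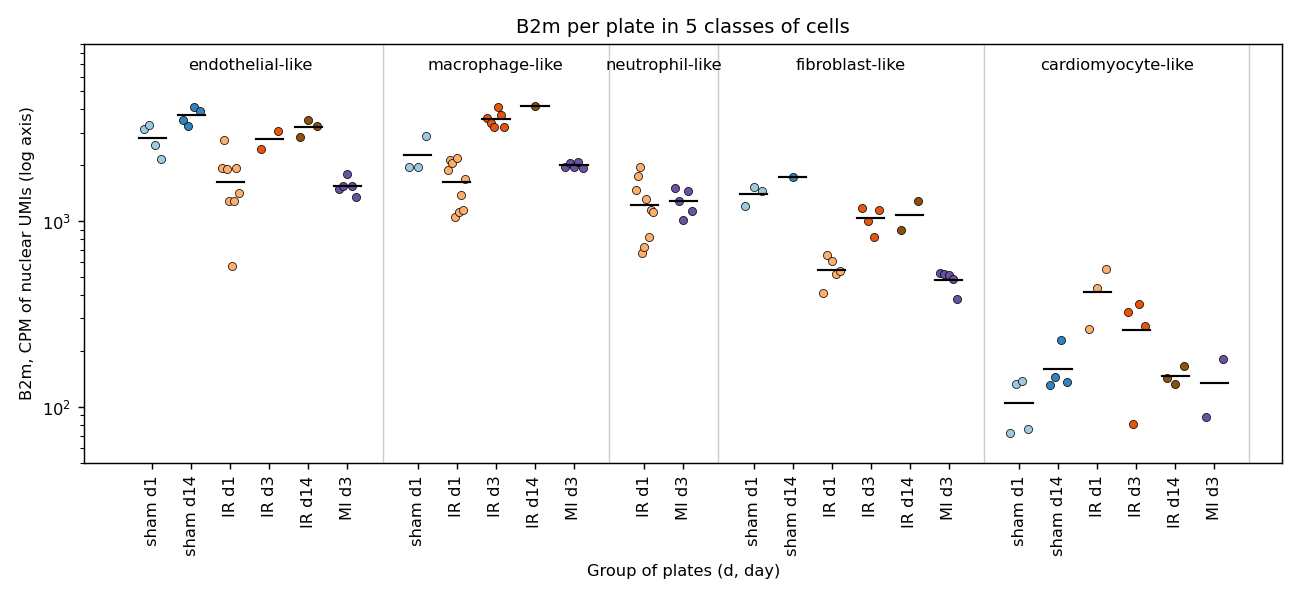
B2m in each plate, in CPM of nuclear UMIs on a log axis, by class of cells and group (d, day). Points are plates with at least 5 cells of the class and lines are means. In cardiomyocyte-like cells the 3 plates of IR d1 (261 to 556) lay above the 4 plates of sham d1 (72.5 to 137), while in macrophage-like cells the 6 plates of IR d3 (3215 to 4099) lay above the 9 plates of IR d1 (1052 to 2191).

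In cardiomyocyte-like cells, marked by Myh6, Tnnt2 and other sarcomere genes, B2m was higher at day 1 and day 3 of IR than in sham, while at day 14 no difference was called. On the 4 day 1 sham plates B2m stood at 72.5, 132, 137 and 76.3 CPM, and on the 3 plates of IR day 1 at 261, 434 and 556 CPM. The groups did not overlap. The log2 fold change was 1.54 ± 0.44 (SE, edgeR quasi-likelihood test, adjusted p = 0.0128), in a comparison with 13.3% of 4061 genes called and a median gene at -0.51. The IR day 1 values rest on 35 B2m UMIs in 22 cells, and without IR day 1 replicate 3 the change was 1.06 (adjusted p = 0.217). H2-K1, at 43.5, 109 and 79.4 CPM at IR day 1 against 46.9, 75.5, 62.3 and 102 in sham, overlapped between the groups, and neither it nor H2-D1 and Tapbp passed.

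At IR day 3, B2m stood at 326, 81.0, 357 and 272 CPM on 4 plates, 3 of them above the highest of the 8 sham plates, which held 72.5 to 228 CPM. The log2 fold change was 0.90 ± 0.29 (SE, edgeR, adjusted p = 0.0499). It lies at the threshold: the call was lost without any 1 of replicates 4, 6 and 7 of IR day 3, replicates 1 and 4 of day 1 sham, and replicates 1, 2+7 and 8 of day 14 sham, with 0.74 (adjusted p = 0.249) without the first of these. H2-D1, a classical heavy chain, stood at 168, 40.5, 289 and 279 CPM on the same plates against 0 to 142 in sham, a change of 1.26 ± 0.35 (SE, edgeR, adjusted p = 0.0162), and of 0.91 (adjusted p = 0.240) without IR day 3 replicate 7. Its call was also lost in 3 settings of other cells or controls, with adjusted p values from 0.0584 to 0.149. The low plate in both genes was replicate 5. H2-K1 changed by 0.32 ± 0.33 (adjusted p = 0.660) and Tapbp by -0.15 ± 0.37 (adjusted p = 0.892) in the same fit, so that 2 of the 4 genes tested were called, both higher, where 6.23% of all genes were called.

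At day 14, B2m was at 143, 133 and 165 CPM after IR and at 131, 144, 228 and 136 in sham, overlapping groups with a change of -0.07 ± 0.37 (SE, edgeR, adjusted p = 1.00). None of the 4 genes tested passed, in a comparison with 0.0985% of all genes called, 4 genes. Tap1 had 17 UMIs in the 20 plates of cardiomyocyte-like cells together and Nlrc5 had 6, too few to test.

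Markers of other cells also differed between these groups, not all in the order of B2m. The 7 macrophage markers in the tables summed to 16.6 to 201 CPM in cardiomyocyte-like cells of day 1 sham (6 of 7 detected), 54.3 to 503 at IR day 1 (6 of 7) and 162 to 934 at IR day 3 (7 of 7). The 6 fibroblast markers summed to a median of 216 CPM in day 1 sham, 874 at IR day 1 and 2162 at IR day 3, and the 6 neutrophil markers to a median of 238, 715 and 88.0. The 8 cardiomyocyte markers were at a median of 72919, 35501 and 76493 CPM. The part of these markers in the B2m levels was not tested. Without the cells richest in markers of another class, the change at IR day 3, a call at the threshold, was 0.72 and no longer passed. The call at IR day 1 was kept in that setting. Within cluster 5, a cluster led by Nppa, Nppb and Ankrd1, genes known from stressed muscle cells, B2m was 513 ± 110 CPM at IR day 1 (SD, 2 plates), 503 ± 182 at IR day 3 (3 plates), 198 ± 123 at IR day 14 (2 plates) and 135 ± 65.3 after MI (2 plates). That cluster held 81.3% of the cardiomyocyte-like cells of IR day 1, 61.0% of those of IR day 3 and 100% of those of MI, but 2.34% and 1.16% of those of day 1 and day 14 sham, so that IR and sham could not be compared within it. Within cluster 1 B2m was 174 ± 83.1 CPM at IR day 3 (2 plates), 173 ± 69.5 in day 14 sham (4 plates) and 78.2 ± 38.9 in day 1 sham (4 plates). Within cluster 2 it was 174 CPM at IR day 3 (1 plate), 228 ± 67.4 in day 1 sham (3 plates) and 137 ± 113 in day 14 sham (4 plates). Within cluster 13 it was 178 and 362 CPM on 2 plates of IR day 3, 119 ± 57.3 in day 1 sham (3 plates), and 0 and 330 CPM on 2 plates of day 14 sham.

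In endothelial-like cells, marked by Pecam1, Cdh5 and Kdr, B2m moved the other way at day 1. It stood at 3125, 3285, 2582 and 2168 CPM on the day 1 sham plates and at 571 (lowest), 1659 (median) and 2736 (highest) CPM on the 8 plates of IR day 1. The highest IR plate lay within the sham range and the other 7 below it. The change was -0.87 ± 0.27 (SE, edgeR, adjusted p = 0.0237). Tapbp, tapasin, fell by 1.00 ± 0.32 on the log2 scale (adjusted p = 0.0282), from 278 to 360 CPM in sham to 85.1 to 286 CPM. H2-K1 (-0.66 ± 0.26, adjusted p = 0.0841), H2-D1 (-0.65 ± 0.26, adjusted p = 0.0903) and H2-T23 (-1.12 ± 0.63, adjusted p = 0.241) did not pass, so that 2 of 5 genes tested were called, both lower, against 15.5% of 4134 genes in either direction. Both calls are near the threshold. B2m lost it without any 1 of IR replicates 1, 5, 7 and 8 and sham replicates 1, 2 and 3, with -0.76 (adjusted p = 0.114) without sham replicate 2. Tapbp lost it without any 1 of IR replicates 1, 5, 7 and 9 and sham replicates 2, 3 and 4, with -0.82 (adjusted p = 0.0867) without IR replicate 1, and with -0.68 where at least 10 cells per plate were asked. Of all 22 alternative settings, B2m lost its call in 11 and Tapbp in 12.

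The make-up of the class differed between these groups. Cluster 4, led by capillary genes such as Gpihbp1, held 77.7% of the endothelial-like cells of day 1 sham and 43.4% at IR day 1, and cluster 11, led by Plvap and Vwf, held 5.83% and 53.9%. Within cluster 4 B2m was 3147 ± 663 CPM in day 1 sham (SD, 4 plates) and 2299 ± 794 at IR day 1 (3 plates), ranges of 2609 to 4102 and 1383 to 2796 that overlap. The 8 cardiomyocyte markers in these cells summed to a median of 14816 CPM in day 1 sham and 2092 at IR day 1. The part of either in the B2m change was not tested.

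At IR day 3, B2m was at 2443 and 3075 CPM on the 2 endothelial-like plates, within the sham range of 2168 to 4142. None of the 5 genes tested passed against sham (1.38% of all genes called), with B2m at -0.20 ± 0.36 (SE, edgeR, adjusted p = 0.883). At day 14, B2m was at 2838, 3513 and 3263 CPM after IR and at 3527, 3272, 4142 and 3937 CPM in sham, a change of -0.06 ± 0.34 (adjusted p = 0.999), and again none passed (0% of all genes called by edgeR, 0 by DESeq2 and 223 at an unadjusted p under 0.05). H2-T23 had the widest difference there, 57.7, 89.3 and 165 CPM against 142, 211, 677 and 264 CPM, with a change of -1.73 ± 0.72 (adjusted p = 0.903).

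The mean difference in B2m between endothelial-like and cardiomyocyte-like cells was smaller at IR day 1 and day 3 than in sham, on 2 plates each and without a test adjusted over the family. It was 4.64 ± 0.46 in log2(CPM + 10) in day 1 sham (SD, 4 plates), 2.56 ± 0.40 at IR day 1 (2 plates), 3.16 ± 0.41 at IR day 3 (2 plates) and 4.36 ± 0.23 at IR day 14 (3 plates), against 4.49 ± 0.28 in day 14 sham (4 plates). The change from sham at IR day 3 was -1.41 (exact permutation test, two-sided, p = 0.0222, the smallest this design allows, unadjusted). At IR day 1 it was -2.09, and 2 plates against 4 cannot give p under 0.0667 (exact p = 0.0667). At IR day 14 it was -0.13 (exact p = 0.514). These tests belong to a family of 84 such tests over genes, class pairs and comparisons, 9 of which had p under 0.05.

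**Figure D3:**
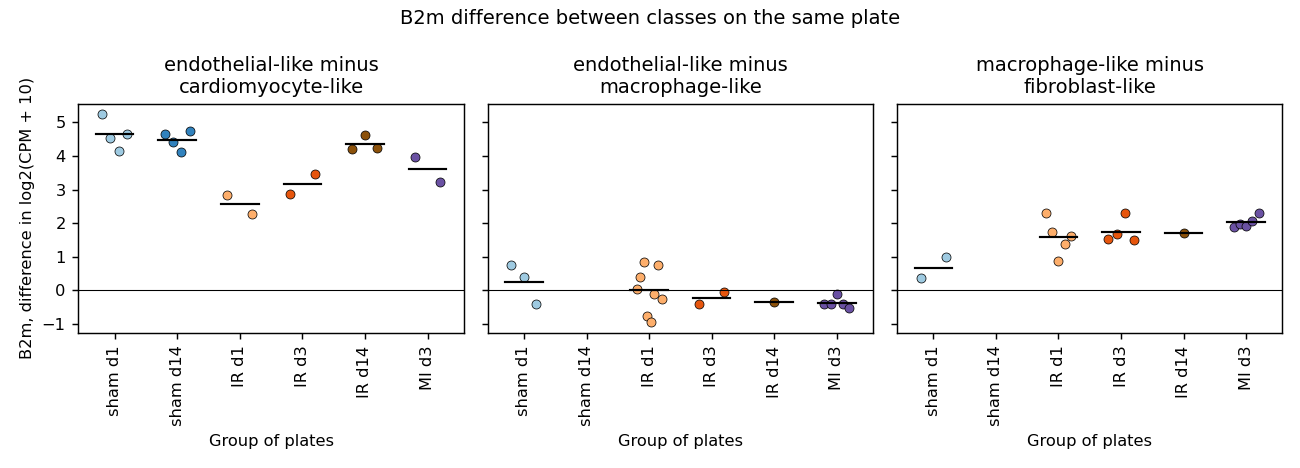
Difference of B2m between classes on the same plate, in log2(CPM + 10), by group (d, day), for 3 pairs of classes. Points are plates, lines are means, and 0 marks equal levels. The endothelial-like minus cardiomyocyte-like difference was 4.64 in sham d1, 2.56 at IR d1 and 4.36 at IR d14, and the macrophage-like minus fibroblast-like difference was 2.03 at MI d3.

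In macrophage-like cells, marked by Cd68, Csf1r and C1qa, B2m rose from day 1 to day 3 of IR together with 3 heavy chains. B2m stood at 1052 (lowest), 1680 (median) and 2191 (highest) CPM on the 9 plates of IR day 1 and at 3215, 3496 and 4099 CPM on the 6 plates of IR day 3. The groups did not overlap. The log2 fold change was 1.10 ± 0.19 (SE, edgeR, adjusted p = 6.62e-05), and it kept its call in 25 of 25 alternative settings.

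H2-D1 ran from 916 to 1434 CPM (median 1173) at IR day 1 and from 1684 to 3877 (median 2384) at IR day 3, again without overlap, a change of 1.13 ± 0.20 (adjusted p = 0.000109). H2-T23 ran from 0 to 112 CPM (median 37.7) at IR day 1 and from 85.1 to 204 CPM (median 142) at IR day 3, a change of 1.23 ± 0.34 (adjusted p = 0.00714, and 0.0514 with at least 10 cells per plate). H2-K1 ran from 365 to 1085 CPM (median 676) and from 890 to 1621 CPM (median 993), overlapping groups with a change of 0.65 ± 0.20 (adjusted p = 0.0136), or 0.51 (adjusted p = 0.0584) without IR day 3 replicate 1 and 0.42 (adjusted p = 0.141) in cells of at least 2000 UMIs. The loading genes did not pass: Tap1 changed by -0.05 ± 0.34 (adjusted p = 0.941) and Tapbp by 0.39 ± 0.28 (adjusted p = 0.335). So 4 of 6 genes tested rose, where 26.7% of 5094 genes were called, 734 higher and 624 lower.

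Against day 1 sham, with 1967, 1964 and 2881 CPM of B2m on 3 plates, IR day 1 differed by -0.49 ± 0.24 (SE, edgeR, adjusted p = 0.312). None of the 6 genes tested was called there, against 2.63% of all genes. The class differed in make-up between the days. Cluster 0, with Ccr2 and class II genes among its leading genes, held 85.5% of the macrophage-like cells of IR day 1, and cluster 8, led by Gpnmb and Cxcl10, an interferon-induced chemokine, held 74.0% of those of IR day 3. Within cluster 0 B2m was 1560 ± 515 CPM at IR day 1 (SD, 9 plates) and 2630 ± 160 at IR day 3 (2 plates, 2517 and 2743, above the highest of the 9 at 2206). Cluster 8 held 2972 CPM at IR day 1 (1 plate, 5 cells) and 3361 ± 132 CPM at IR day 3 (3 plates). Cluster 12, described below, held 1168 CPM at IR day 1 (1 plate, 5 cells) and 4063 ± 1676 CPM at IR day 3 (3 plates).

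**Figure D4:**
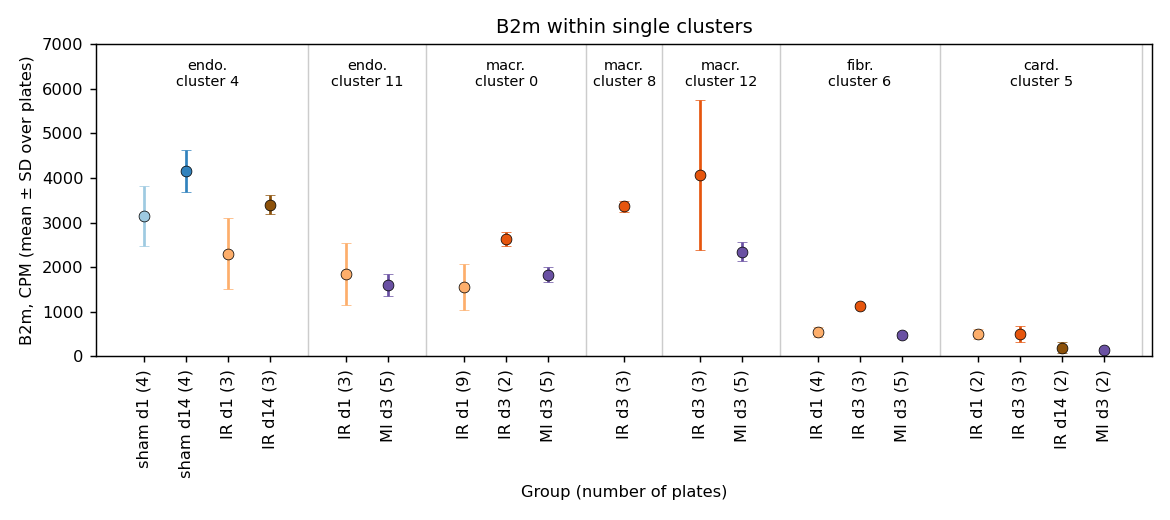
B2m within single clusters of endothelial-like, macrophage-like, fibroblast-like and cardiomyocyte-like cells, in CPM on a linear axis, by group (d, day) with the number of plates in brackets. Points are means and bars SD over plates with at least 5 cells of the cluster, for groups with 2 or more such plates. In fibroblast-like cluster 6 IR d3 (1138) lay above IR d1 (549) and MI d3 (485), and in macrophage-like cluster 0 IR d3 (2630) lay above IR d1 (1560) and MI d3 (1836).

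In fibroblast-like cells, marked by Col1a1, Dcn and Pdgfra, B2m was at 1204, 1532 and 1454 CPM in day 1 sham and 1724 CPM on the single day 14 sham plate with enough cells. At IR day 1 it was at 411, 656, 610, 519 and 541 CPM, below all 4 sham plates, a comparison for which no test was planned. At IR day 3 it was at 1180, 1006, 820 and 1143 CPM, above all 5 plates of IR day 1 and below the lowest sham plate. Cluster 15, led by Pi16, held 100% of the fibroblast-like cells of day 1 sham, 18.2% of those of IR day 1 and 35.7% of those of IR day 3. The part of this make-up in the B2m levels was not tested. None of the 5 genes tested passed between IR day 3 and sham, where 1.78% of 5940 genes were called and the median gene stood at 0.35. B2m changed by -0.38 ± 0.29 (SE, edgeR, adjusted p = 0.546), H2-K1 by -0.01 ± 0.33 (adjusted p = 0.999) and Tapbp by -0.83 ± 0.32 (adjusted p = 0.192). Tapbp was at 412, 402, 618 and 431 CPM on the 4 sham plates, 33.8 to 93.9 CPM at IR day 1 and 180 to 265 CPM at IR day 3, 3 ranges that do not overlap.

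After MI at day 3, some of the 8 genes were called lower than in sham or at IR day 3 in each class tested, and none was called higher. The p values treat the 5 MI plates as separate, although some share a heart. In endothelial-like cells all 5 genes tested were lower after MI than in sham, where 31.3% of all genes were called, 682 higher and 612 lower. B2m stood at 1481, 1545, 1794, 1553 and 1348 CPM after MI and at 2168 to 4142 CPM (medians 2853 at day 1 and 3732 at day 14) on the 8 sham plates. The groups did not overlap, and the change was -1.10 ± 0.27 (SE, edgeR, adjusted p = 0.00166). H2-K1 was at 408, 369, 277, 401 and 250 CPM against 790 to 2035 CPM, a change of -1.94 ± 0.26 (adjusted p = 8.99e-07).

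H2-D1 fell by 1.29 ± 0.26 on the log2 scale (adjusted p = 0.000214), from 1202 to 3910 CPM in sham to 400 to 1128 CPM. H2-T23 changed by -2.68 ± 0.56 (adjusted p = 0.000413) and Tapbp by -1.27 ± 0.30 (adjusted p = 0.00155). These 5 calls held in 25 of 25 alternative settings each, while the change ran from -3.57 to -1.78 for H2-T23 and from -1.70 to -0.88 for H2-D1. The pooled sham days differed in mean, with H2-T23 at 83.4 CPM at day 1 and 324 at day 14, and H2-D1 at 1452 and 3033 CPM. Cluster 11 held 89.7% of the endothelial-like cells of MI, and within it B2m was 1606 ± 242 CPM after MI (SD, 5 plates) and 1840 ± 693 at IR day 1 (3 plates). The 8 cardiomyocyte markers in endothelial-like cells summed to 40.6 to 250 CPM after MI and to 9765 to 26076 CPM in sham. Against IR day 3, with 2 plates, H2-K1 alone of the 5 passed, with -1.43 ± 0.35 (adjusted p = 0.0133), where 3.31% of all genes were called. The call was lost in 4 of 17 alternative settings. Among these were no filter on low counts (adjusted p = 0.223), at least 10 cells per plate, and IR day 3 without replicate 7. The last settings named each leave 1 plate of IR day 3, assumed to vary like the plates of the other groups. The change ran from -1.70 to -0.95 with 1 plate left out and from -1.51 to -0.91 in the other settings.

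In fibroblast-like cells, 4 of 5 genes tested were lower after MI than at IR day 3 (8.94% of all genes called) and the same 4 were lower than in sham (18.7% called, median gene at 0.39). These comparisons share the MI plates. B2m after MI was at 524, 520, 511, 488 and 382 CPM, below the 4 plates of IR day 3 and the 4 plates of sham, with changes of -1.16 ± 0.25 (SE, edgeR, adjusted p = 0.00486) and -1.54 ± 0.27 (adjusted p = 0.000370). Tapbp was at 83.5 to 107 CPM after MI, changes of -1.24 ± 0.26 (adjusted p = 0.00380) and -2.07 ± 0.29 (adjusted p = 2.58e-05). H2-K1 changed by -1.33 ± 0.27 and -1.35 ± 0.30 (adjusted p = 0.00212 and 0.00305), and H2-D1 by -1.41 ± 0.32 and -1.92 ± 0.34 (adjusted p = 0.00653 and 0.000444). H2-T23, at 14.2 to 27.0 CPM after MI, was not called. Without cells rich in markers of other classes, the call of H2-K1 against sham (-0.73, adjusted p = 0.161) and those of B2m (-0.89, 0.0826) and H2-D1 (-1.11, 0.0502) against IR day 3 were lost. With no filter on low counts H2-K1 against sham (-1.05, adjusted p = 0.0511) and B2m against IR day 3 (-0.96, 0.0551) lost theirs. Against IR day 3, Tapbp and H2-K1 each lost the call in 1 of 19 alternative settings (adjusted p = 0.144 and 0.104). H2-D1 lost it in 2, with adjusted p up to 0.204.

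Cluster 6, led by Timp1, Tnc and Col1a1, held 99.2% of the fibroblast-like cells of MI, 64.3% of those of IR day 3 and none of those of day 1 sham, which were in cluster 15. Within cluster 6, B2m was at 485 ± 59.3 CPM after MI (SD, 5 plates), 1138 ± 28.2 at IR day 3 (3 plates) and 549 ± 122 at IR day 1 (4 plates). Its plates ran from 382 to 524 CPM after MI, from 1107 to 1163 at IR day 3 and from 380 to 656 at IR day 1. The part of the make-up in the difference between MI and IR day 3 was not tested.

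In macrophage-like cells, B2m after MI was at 1953, 2067, 1954, 2081 and 1935 CPM, a narrow range below all 6 plates of IR day 3. The change was -0.79 ± 0.22 (SE, edgeR, adjusted p = 0.0199), and 0.0513 and 0.0573 without IR day 3 replicate 5 or MI replicate 3. H2-K1 changed by -0.94 ± 0.22 (adjusted p = 0.00554), H2-D1 by -0.94 ± 0.23 (adjusted p = 0.00835) and H2-T23 by -1.52 ± 0.30 (adjusted p = 0.00101), so that 4 of 6 were lower against 9.44% of all genes, and Tap1 and Tapbp did not pass. With no filter on low counts B2m, H2-K1 and H2-D1 lost their calls (-0.57, -0.73 and -0.73, adjusted p = 0.183, 0.0972 and 0.0742). Against the 3 day 1 sham plates none of the 6 was called (2.38% of all genes), with B2m at -0.17 ± 0.27 (adjusted p = 0.806). The make-up differed here too. Cluster 0 held 77.9% of the macrophage-like cells of MI and 11.7% of those of IR day 3, and cluster 8 held 6.07% and 74.0%. B2m after MI and at IR day 3 was 1836 ± 176 (5 plates) and 2630 ± 160 CPM (2 plates) within cluster 0, and 3050 (1 plate) and 3361 ± 132 CPM (3 plates) within cluster 8. Within cluster 12, led by Lyve1, Folr2 and Cd163, genes known from resident macrophages, it was 2351 ± 220 (5 plates) and 4063 ± 1676 CPM (3 plates, 22 cells).

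In cardiomyocyte-like cells of MI only 2 plates with 12 cells and 15 B2m UMIs could be used. B2m was at 88.7 and 181 CPM, a change of -0.57 ± 0.50 from sham (SE, edgeR, adjusted p = 0.385) and of -1.46 ± 0.52 from IR day 3 (adjusted p = 0.0322). H2-K1 was called lower in both comparisons (-1.82 ± 0.71, adjusted p = 0.0394, and -2.14 ± 0.72, adjusted p = 0.0249) on 4 UMIs, and H2-D1 in the second (-2.38 ± 0.72, adjusted p = 0.0115), where 37.1% and 23.9% of all genes were called. Each of these 4 calls was lost without MI replicate 2. That leaves 1 plate of MI, which is then assumed to vary like the plates of the other groups. With 1 plate left out at a time, the H2-K1 change ran from -3.01 to -0.89 against sham and from -3.36 to -1.23 against IR day 3. The H2-D1 change against IR day 3 ran from -3.21 to -1.63. Against IR day 3, B2m was also lost without MI replicate 3 (adjusted p = 0.0728) or IR day 3 replicate 4 (0.0675) and H2-K1 without IR day 3 replicate 7 (0.0608). Apart from the replicate block, the H2-K1 call against sham was also lost in 5 other settings, with adjusted p values from 0.0566 to 0.0925, and against IR day 3 in 2 (0.0568 and 0.0612). The cells of MI differed in other measures: mitochondrial UMIs made up a median of 5.83% of a cell's UMIs, against 74.2% to 80.9% in the other groups, and Rn45s, a ribosomal RNA precursor, 15684 and 69385 CPM against group medians of 165493 to 262709 CPM.

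**Figure D5:**
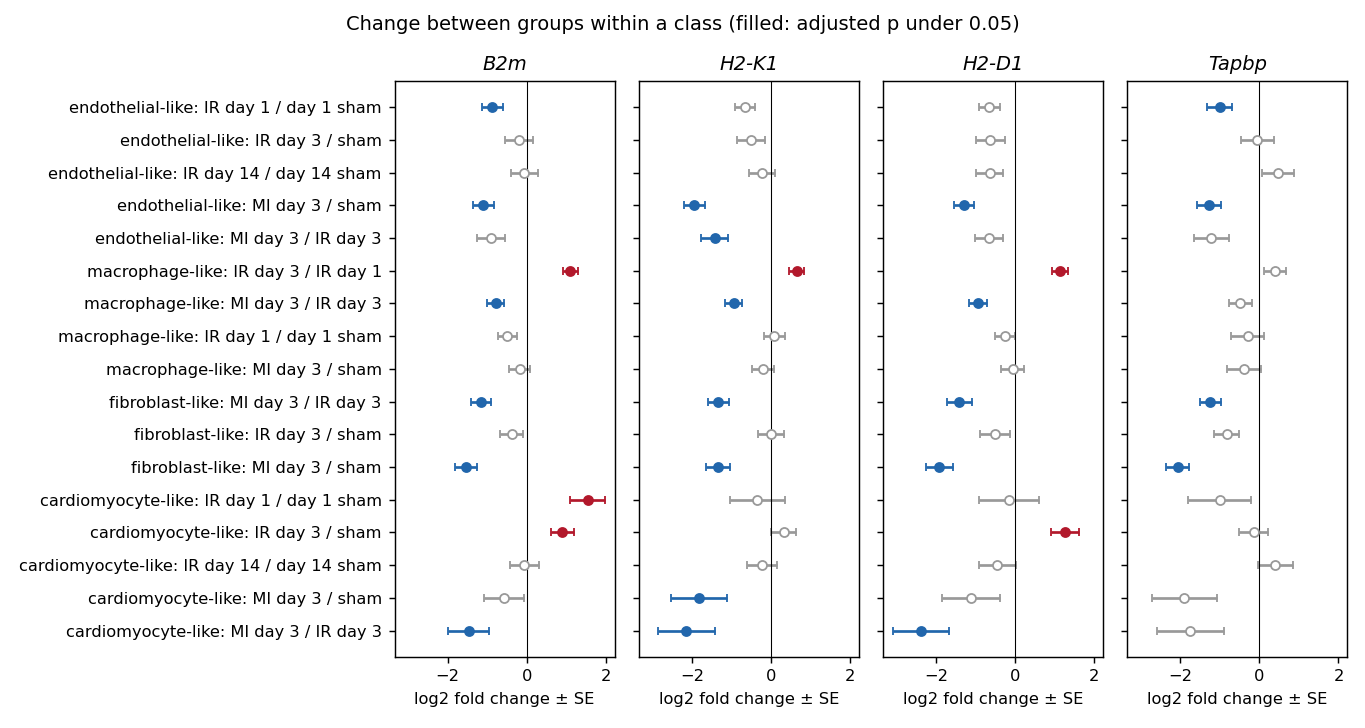
Log2 fold change of B2m, H2-K1, H2-D1 and Tapbp between groups within a class of cells, with bars of 1 SE, from edgeR on counts summed per plate. Filled red points were called higher and filled blue points lower at an adjusted p under 0.05, and open grey points did not pass. Filled red points appear in 3 comparisons, cardiomyocyte-like cells at IR day 1 and day 3 and macrophage-like cells from IR day 1 to day 3, and filled blue points in comparisons of MI and of endothelial-like cells at IR day 1.

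Neutrophil-like cells, marked by S100a8, S100a9 and Retnlg, were present on enough plates at IR day 1 (9 plates) and after MI (5 plates), and no test was planned between them. B2m was at 676 to 1953 CPM (median 1151) at IR day 1 and at 1014 to 1518 CPM (median 1286) after MI, overlapping ranges. H2-D1 was at 1086 to 2743 CPM (median 1638) and at 622 to 1534 CPM (median 1286). Tapbp was at 71.2 to 408 CPM (median 192) and at 214 to 455 CPM (median 404). The ranges of H2-D1 and Tapbp overlapped as well.

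Other genes of the pathway, 34 of 40 listed genes being in the tables, did not move as a block with the 8. In endothelial-like cells after MI, where 31.3% of all genes were called against sham, 682 higher and 612 lower, 3 of 5 tested genes of peptide supply were lower, the immunoproteasome subunits Psmb8 (-1.21 ± 0.30, edgeR, adjusted p = 0.00237), Psmb9 (-1.54 ± 0.57, adjusted p = 0.0370) and Psmb10 (-1.11 ± 0.32, adjusted p = 0.00826). All 3 tested chaperones of the endoplasmic reticulum were higher in the same fit, Calr (1.13 ± 0.29, adjusted p = 0.00258), Canx (0.60 ± 0.23, adjusted p = 0.0393) and Pdia3 (0.83 ± 0.29, adjusted p = 0.0307). The chaperones also fold many other proteins. Irf1, a transcription factor of the interferon response, was lower after MI (-1.61 ± 0.44, adjusted p = 0.00547) and at IR day 1 (-1.75 ± 0.47, adjusted p = 0.0102), the latter without a call in any of the 5 tested peptide supply genes.

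In macrophage-like cells from IR day 1 to day 3 none of the 4 peptide supply genes and none of the 3 chaperones tested was called, where 26.7% of all genes were. Hfe, a class I-like chain of iron control that pairs with B2m, rose by 1.56 ± 0.32 from IR day 1 to day 3 (edgeR, adjusted p = 0.000532) and was lower after MI than at IR day 3 (-0.96 ± 0.27, adjusted p = 0.0195).

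Fcgrt, the neonatal Fc receptor chain that also pairs with B2m, was called lower in 7 of the 17 comparisons and higher in none. Several of the 7 share the MI plates, and the share of all genes called in them ran from 2.38% to 37.1%. In macrophage-like cells Fcgrt was lower than in day 1 sham at IR day 1 (-2.85 ± 0.54, edgeR, adjusted p = 0.00312) and after MI (-2.68 ± 0.52, adjusted p = 0.00335). There 2.63% and 2.38% of all genes were called and no member of the 8. Cluster 12 held 61.9% of the macrophage-like cells of day 1 sham, 10.3% of those of IR day 1 and 16.1% of those of MI, and its part in the Fcgrt change was not tested. In fibroblast-like cells it was lower after MI than in sham (-2.40 ± 0.37, adjusted p = 8.39e-05). In cardiomyocyte-like cells Calr was higher at IR day 1 (1.32 ± 0.33, adjusted p = 0.00472), where 13.3% of all genes were called. After MI Calr, Canx and Pdia3 were lower than in sham, by changes of -2.34, -2.97 and -3.17 that rest on the same 2 plates. There 37.1% of all genes were called.

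Across 24 profiles of class and group with enough cells, the gene whose level was most like that of B2m among 3770 genes ranked was H2-K1 (Spearman rho = 0.958), followed by H2-D1 (0.937), Psmb8 (0.936), Xdh (0.932) and Ly6e (0.926). Psmb8 was also among the 5 nearest of H2-K1 (0.913) and of H2-D1 (0.911). Tapbp was less close to the 3 (0.717 to B2m), and its nearest gene was Rbm5 (0.911). Nlrc5 was furthest from B2m among the 8 (0.631). The profiles share plates and depth, so these values describe this set of profiles.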

How the data were processed

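Left ventricle cells were sorted into plates and sequenced by SORT-seq. Per the labels and the study's methods, the authors mapped reads with BWA to the mouse genome (GRCm38, mm10) and deposited UMI counts per gene and well. The highest value in the tables was 4096. Mitochondrial genes and spike-ins were left out, and a minimum of 1000 UMIs defined a cell. Doublets were not called.

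Cells were clustered with scanpy 1.11.5 (2000 variable genes, 30 components, 15 neighbours, Leiden resolution 1) without the 8 genes and the other genes of their pathway. Clusters were named from marker lists. Counts were summed per plate and class with at least 5 cells. Groups were compared within a class with edgeR 4.0.16 (quasi-likelihood test on all groups of the class, genes filtered on low counts, Benjamini-Hochberg adjustment over all genes tested, threshold 0.05). Classes were compared on the same plates by an exact two-sided sign-flip test of differences in log2(CPM + 10) for the 8 genes and all others with at least 20 UMIs in the pair. The design had planned to adjust these p values over the tests of the 8 genes, and they were adjusted over all genes of a pair instead. The scripts were tested on simulated data. The members and gene lists were chosen with earlier results of these data known. All 8 members are named, and another gene of the pathway only where it passed the threshold in its comparison. DESeq2 1.42.0, other scalings, filters and cell sets, a replicate block and leaving out each plate were the alternatives. Plates are not matched to mice, so the spread between plates may be technical. Some genes of the lists are not reported here.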

Additional observations from a re-analysis of the deposited data

Results flagged for a closer look

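In groups of 4 to 10 plates, 1 plate stood far from the others by Dixon's test at the 95% level in 15 of 120 groups of values, where chance gives about 1 in 20. In 5 of the 15 every other plate was at 0, so that few UMIs fixed the ratio and that rate does not apply to them. For B2m the CPM value was 228 in cardiomyocyte-like cells of day 14 sham (highest plate, replicate 5, nearest other plate 144) and 382 in fibroblast-like cells of MI (lowest plate, replicate 5, nearest other plate 488). For H2-D1 the CPM value was 1151 in macrophage-like cells of MI (lowest plate, replicate 5, nearest other plate 1301). For H2-T23 the CPM value was 34.0 in cardiomyocyte-like cells of IR day 3 (highest plate, replicate 6, nearest other plate 4.74) and 161 in neutrophil-like cells of MI (highest plate, replicate 5, nearest other plate 38.0). For Nlrc5 the CPM value was 1.19 in cardiomyocyte-like cells of IR day 3 (highest plate, replicate 4, nearest other plate 0), 6.80 in cardiomyocyte-like cells of day 14 sham (highest plate, replicate 8, nearest other plate 0), 47.5 in endothelial-like cells of IR day 1 (highest plate, replicate 6, nearest other plate 14.2), 24.1 in macrophage-like cells of MI (highest plate, replicate 5, nearest other plate 19.4) and 80.7 in neutrophil-like cells of MI (highest plate, replicate 5, nearest other plate 23.0). For Tap1 the CPM value was 4.27 in cardiomyocyte-like cells of day 1 sham (highest plate, replicate 1, nearest other plate 0) and 4.85 in cardiomyocyte-like cells of day 14 sham (highest plate, replicate 1, nearest other plate 0). For Tap2 the CPM value was 0 in cardiomyocyte-like cells of IR day 3 (lowest plate, replicate 5, nearest other plate 14.3), 10.97 in fibroblast-like cells of IR day 1 (highest plate, replicate 3, nearest other plate 0) and 67.9 in macrophage-like cells of IR day 3 (highest plate, replicate 3, nearest other plate 35.2).

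The change of a difference between classes against the control groups had an unadjusted exact permutation p under 0.05 in 9 of 84 tests. For B2m at IR day 3 against sham it was -1.405 between endothelial-like and cardiomyocyte-like cells (exact p = 0.0222) and -1.458 between fibroblast-like and cardiomyocyte-like cells (exact p = 0.0286). After MI against sham it was -0.956 for B2m between endothelial-like and cardiomyocyte-like cells (exact p = 0.0222), 0.685 for B2m between endothelial-like and fibroblast-like cells (exact p = 0.00794) and -1.296 for H2-K1 between endothelial-like and macrophage-like cells (exact p = 0.0179). Between macrophage-like and fibroblast-like cells it was 1.361 for B2m, 1.347 for H2-K1 and 1.483 for Tapbp after MI against sham (exact p = 0.0476 each, with 2 sham plates), and 1.173 for Tapbp after MI against IR day 3 (exact p = 0.0159).

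Wells of at least 100 but under 1000 UMIs, which entered no comparison, held more of 4 genes at IR day 1, IR day 3 and after MI than in either sham group, which did not hold at IR day 14. B2m was at 780 CPM at IR day 1, 1164 at IR day 3 and 930.0 after MI, against 431 in the higher sham group. H2-D1 was at 569, 792 and 564 CPM in the same order, against 241. H2-K1 was at 391, 473 and 347 CPM, against 180.1. Tapbp was at 144, 165 and 153 CPM, against 133. At IR day 14 the values were 393 CPM for B2m, 167 for H2-D1, 108 for H2-K1 and 113 for Tapbp. The sparse genes exceeded the higher sham group in single groups, H2-T23 at IR day 3 (77.1 against 25.4 CPM), Tap1 at IR day 3 (31.6 against 22.8), Tap2 at IR day 3 and day 14 (42.1 and 36.1 against 18.1) and Nlrc5 after MI (11.5 against 9.03), on 7 to 22 UMIs each. These wells were pooled by group and have no replicate error here.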

How the results depend on the processing

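Of 657 alternative values for the 31 called results between groups, 567 kept direction and call, 89 kept the direction and lost the call, and 1 changed sign. Of 1046 for the 45 called results between classes, 931 kept both and 115 lost the call. With no filter on low counts, B2m lost its call at 1.09 (IR day 1 against day 1 sham) and 1.00 (IR day 3 against sham) in cardiomyocyte-like cells, -0.57 (MI against IR day 3) in macrophage-like cells and -0.96 (MI against IR day 3) in fibroblast-like cells, and the uncalled B2m change took the other sign at 0.22 (IR day 14 against day 14 sham) in cardiomyocyte-like cells, 0.0033 (IR day 14 against day 14 sham) in endothelial-like cells and 0.17 (MI against sham) in macrophage-like cells. With cells of at least 2000 UMIs, B2m lost its call at 2.00 (IR day 1 against day 1 sham) and 0.83 (IR day 3 against sham) in cardiomyocyte-like cells and -0.63 (IR day 1 against day 1 sham) in endothelial-like cells, and the uncalled B2m change took the other sign at 0.0246 (IR day 14 against day 14 sham) in endothelial-like cells. With the 8 genes left in the clustering, B2m lost its call at 1.27 (IR day 1 against day 1 sham) and 0.83 (IR day 3 against sham) in cardiomyocyte-like cells and -0.64 (IR day 1 against day 1 sham) in endothelial-like cells. With at least 10 cells per plate, B2m lost its call at -0.64 (IR day 1 against day 1 sham) in endothelial-like cells. Without cells rich in markers of other classes, B2m lost its call at 0.72 (IR day 3 against sham) in cardiomyocyte-like cells and -0.89 (MI against IR day 3) in fibroblast-like cells. With the second table of the repeated plate left out, B2m lost its call at 0.90 (IR day 3 against sham) in cardiomyocyte-like cells. With day 14 sham alone as control, B2m lost its call at 0.65 (IR day 3 against sham) in cardiomyocyte-like cells. The cause of these losses was not tested.

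Same-numbered plates did not deviate together (r from -0.205 to 0.15), so the numbers were not taken to pair the plates. With the replicate block, B2m stood without a call at 0.33 (IR day 3 against sham) and -1.18 (MI against IR day 3) in cardiomyocyte-like cells, -0.63 (IR day 1 against day 1 sham) in endothelial-like cells, -0.86 (MI against IR day 3) in macrophage-like cells and -1.05 (MI against IR day 3) in fibroblast-like cells, took the other sign at 0.0197 (IR day 3 against sham) in endothelial-like cells, and H2-D1 in cardiomyocyte-like cells at IR day 3 against sham went to -0.0903. In the same fit H2-K1 and H2-D1 in cardiomyocyte-like cells went to -0.79 and -0.76 (MI against IR day 3) and H2-K1 to -1.75 (MI against sham), all without a call. Without the merged day 14 sham plate B2m lost its call at 0.87 in cardiomyocyte-like cells at IR day 3.

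Leaving out 1 plate at a time, the B2m change ran from 1.06 to 1.79 (IR day 1 against day 1 sham), from 0.74 to 1.13 (IR day 3 against sham), from -0.16 to 0.0686 (IR day 14 against day 14 sham), from -0.90 to -0.11 (MI against sham) and from -1.87 to -1.03 (MI against IR day 3) in cardiomyocyte-like cells, from -0.98 to -0.72 (IR day 1 against day 1 sham), from -0.34 to -0.0578 (IR day 3 against sham), from -0.17 to 0.0981 (IR day 14 against day 14 sham), from -1.12 to -1.01 (MI against sham) and from -0.998 to -0.66 (MI against IR day 3) in endothelial-like cells, from 0.95 to 1.14 (IR day 3 against IR day 1), from -0.81 to -0.70 (MI against IR day 3), from -0.53 to -0.22 (IR day 1 against day 1 sham) and from -0.24 to 0.0609 (MI against sham) in macrophage-like cells and from -1.30 to -1.06 (MI against IR day 3), from -0.48 to -0.23 (IR day 3 against sham) and from -1.63 to -1.42 (MI against sham) in fibroblast-like cells, and the difference between endothelial-like and cardiomyocyte-like cells from 3.94 to 4.12.

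The number of genes called moved by more than 1.5 times under some alternative in 16 comparisons between groups. The main count with its lowest and highest was 541, 137 to 558 (IR day 1 against day 1 sham), 253, 48 to 377 (IR day 3 against sham), 4, 1 to 16 (IR day 14 against day 14 sham), 1507, 668 to 1576 (MI against sham) and 970, 281 to 1158 (MI against IR day 3) in cardiomyocyte-like cells, 639, 306 to 734 (IR day 1 against day 1 sham), 57, 8 to 121 (IR day 3 against sham), 0, 0 to 9 (IR day 14 against day 14 sham) and 137, 86 to 202 (MI against IR day 3) in endothelial-like cells, 1358, 754 to 2028 (IR day 3 against IR day 1), 481, 177 to 1022 (MI against IR day 3), 134, 27 to 275 (IR day 1 against day 1 sham) and 121, 32 to 301 (MI against sham) in macrophage-like cells and 531, 131 to 1323 (MI against IR day 3), 106, 4 to 291 (IR day 3 against sham) and 1109, 268 to 1509 (MI against sham) in fibroblast-like cells. Between classes, a minimum of 10 cells per plate left too few plates for any call in 6 of the 9 pairs tested. Leaving out single plates was not run for pairs with neutrophil-like cells. Sparse counts limit Tap1, which passed the count filter between groups only in macrophage-like cells, Tap2 and Nlrc5, which passed it in none of the 4 classes, and cardiomyocyte-like cells of IR day 1 and MI, with 35 and 15 UMIs of B2m.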

Other observations

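H2-Q10, a class Ib heavy chain gene known for its expression in liver, was chosen after its values were seen. It stood at 368 ± 179 CPM in neutrophil-like cells (SD, 14 plates; lowest 138, highest 676), with 411 ± 195 CPM on the 9 plates of IR day 1 (109 UMIs) and 289 ± 128 CPM on the 5 plates of MI (40 UMIs). In the other classes it was at 7.13 ± 9.98 CPM (macrophage-like), 6.24 ± 10.6 CPM (fibroblast-like), 0.932 ± 3.15 CPM (endothelial-like) and 0 CPM (cardiomyocyte-like). Since it was chosen for this pattern, no test is given. H2-Q10 is close in sequence to other heavy chain genes, and how reads were divided among them was not tested.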
